A study of Macaca fascicularis with 48 samples.

Results

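Lumbar and cervical dorsal root ganglia of cynomolgus monkeys (Macaca fascicularis) were compared across all genes by messenger RNA sequencing. A dorsal root ganglion is the cluster of sensory neuron cell bodies on a dorsal spinal root, with their satellite glia, Schwann cells, connective tissue and vessels. The comparison took every ganglion library in the study, 16 of 48 libraries, with 8 from lumbar and 8 from cervical ganglia. Each region had 4 libraries from control animals given 0 mg/kg/day and 4 from animals given 6 mg/kg/day of GS-8873, named in the design text as a compound against mRNA of hepatitis B virus. Both groups were dosed by oral gavage for 13 weeks, and each group of 4 had 2 males and 2 females. The labels name 10 animals for the ganglia: 4 controls that gave both regions, and 6 treated animals, of which 2 gave both regions, 2 gave cervical ganglia and 2 gave lumbar ganglia. The design text counts 4 treated animals. The labels do not give the segment of a ganglion, so "cervical" and "lumbar" may each cover several levels.

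HOX genes code for homeodomain transcription factors that lie in 4 clusters, named A to D, and are numbered along each cluster by paralogous group. During development, low-numbered genes are active far forward along the body axis and high-numbered genes only further back, and adult tissues often keep part of that positional pattern. In the cord, HOX genes of the middle and high groups take part in setting motor neuron identity at limb and trunk levels.

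Total counts ran from 35453786 to 52889142 per library. All 8 cervical and all 8 lumbar libraries held the sensory neuron transcript AVIL, at 525 to 2034 CPM (a count scaled to library size, here with TMM factors). The oligodendrocyte gene MOG stayed at or under 2.78 CPM. Cervical treated replicate 4 stood apart from the other 15 libraries, with 23.01% mitochondrial reads against 6.97% to 13.4%, and with 2.78 CPM of MOG against at most 1.36. It also had the lowest AVIL, at 525 CPM. On the first principal component, with 29.6% of the variance, it lay at 130, against -20.8 to 0.886 in the others. The rank correlation of its deviations from its group with gene length was -0.41, against -0.11 to 0.24 in the others. In lumbar control replicates 1 and 4 and lumbar treated replicate 1, the skeletal muscle enzyme CKM stood at 34.8, 123 and 21.5 CPM, against at most 6.39 CPM in the other 13 libraries.

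Of 14168 genes tested, 32 differed between lumbar and cervical ganglia (0.226%) at a Benjamini-Hochberg adjusted p under 0.05 in limma, with treatment as a covariate and animal as a random block. Of these, 14 were higher in lumbar ganglia (0.0988%) and 18 were lower (0.127%). An unadjusted p under 0.05 was reached by 1925 genes (13.6%), where about 708 would be expected if no gene differed. That excess depended on the animal block. With animal as a fixed block the number was 2182 in edgeR and 2215 in DESeq2. With no block it was 449 in limma and 534 in edgeR, and with the label number as block it was 639, all under 708. HOX genes made up 10 of the 32, of which 8 were higher and 2 lower. Of the other 22 genes, 6 were higher and 16 lower. In the 6 animals with both regions, 31 of the 32 moved the same way in every animal, and CROCC2 did so in 5. The same animals were in the test that picked these genes. Such agreement, here and for called genes below, is therefore a description and no separate support. The count of called genes depended on single libraries. Without cervical treated replicate 3 it was 7, all of them HOX genes, without cervical treated replicate 4 it was 11, and without lumbar treated replicate 1 it was 102. With animal ignored, limma called 5 genes, all HOX.

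The high-numbered HOX genes gave the largest differences. The table of counts lists 35 HOX genes, of which 25 had enough reads to be tested, and the 6 tested members of groups 9 to 13 were all called higher in lumbar ganglia, with a median log2 fold change of 6.75 (median of all genes -0.00079, with 7057 of 14168 above 0). Only 6 of the 15 members in the table of counts were tested. The filter keeps a gene on the reads of either region, so HOXC10, HOXC9 and HOXA10 entered on their lumbar reads. These 3 could only come out higher. HOXA9, with a lowest cervical level of 0 CPM, could not pass on the cervical libraries alone and also needed lumbar reads. The 6 of 6 is therefore no separate support. With no filter on low counts the median was 1.69, since members with almost no reads then count too.

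HOXC10 (chromosome 11, 52886221 to 52895744) was nearly absent from cervical ganglia: 7 of 8 libraries held 0 reads and control replicate 3 held the only 2, at 0.041 CPM. Lumbar libraries ran from 2.80 to 11.8 CPM with a median of 8.01. Over all libraries the ratio of lumbar to cervical HOXC10 reads, scaled for depth, was 1348 with a 95% counting interval of 373 to 11134. The fitted log2 fold change of 8.57 ± 0.45 (SE; limma adjusted p = 1.09e-08) depends on the small count that the fit adds to each library.

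HOXA10 (chromosome 3, 93544596 to 93557631) gave 0 to 0.222 CPM in cervical ganglia (median 0.041) and 15.6 to 29.6 CPM in lumbar ganglia (median 22.4), a log2 fold change of 9.04 ± 0.56 (limma adjusted p = 5.1e-08). HOXC9 (chromosome 11, 52901647 to 52904886) gave 0 to 0.126 CPM against 3.69 to 7.92 CPM, with medians of 0.057 and 5.92 and a log2 fold change of 6.91 ± 0.38 (limma adjusted p = 1.09e-08). HOXA9 (chromosome 3, 93561025 to 93565820) gave 0 to 2.09 CPM (median 0.444) against 36.1 to 51.99 CPM (median 45.8), a log2 fold change of 6.59 ± 0.47 (limma adjusted p = 4.33e-07). For these 4 genes every lumbar library lay above every cervical library, and each was called under all 14 alternative settings and after leaving out any 1 of the 16 libraries.

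HOXD9 (chromosome 12, 65086865 to 65090168) and HOXB9 (chromosome 16, 33976050 to 33982865) were already present in cervical ganglia and differed less. HOXD9 ran from 0.487 to 1.76 CPM in cervical libraries (median 0.843) and from 1.47 to 3.83 CPM in lumbar libraries (median 2.43), a log2 fold change of 1.60 ± 0.19 (limma adjusted p = 0.000745). HOXB9 ran from 0.390 to 8.69 CPM (median 2.63) and from 6.53 to 17.7 CPM (median 12.4), a log2 fold change of 2.22 ± 0.39 (limma adjusted p = 0.0271). Both genes were higher in lumbar ganglia in 6 of 6 animals, with some overlap between the regions in the full set of libraries. The HOXD9 call was kept after leaving out any 1 library and was made under 10 of 14 alternative settings. The HOXB9 call was lost without any 1 of 6 libraries (adjusted p up to 0.128) and was made under 6 of 14 alternative settings.

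The remaining genes of groups 9 to 13 had too few reads for the test. HOXA11 had 2 reads in all cervical libraries, again all in control replicate 3, and 274 in lumbar libraries, a depth-scaled ratio of 130 with a 95% counting interval of 35.5 to 1075. HOXD10 had 34 and 134 reads, a ratio of 3.73 (2.54 to 5.60). HOXC11, HOXC12 and HOXC13 had 2 reads each in the lumbar libraries and 0 in the cervical libraries, HOXB13 had 4 lumbar and 0 cervical reads, and HOXA13 had 0 in both regions. HOXD12 was near even, with 9 cervical and 12 lumbar reads, a ratio of 1.26 (0.488 to 3.39). HOXD13 went the other way, with 10 reads in 2 cervical libraries and 2 reads in lumbar libraries, a ratio of 0.189 (0.0202 to 0.888). These intervals take each read as independent and cover counting error only, not the spread between animals. The 2 mates of a read pair were counted separately, so 2 reads can come from 1 fragment. The intervals can therefore be too narrow, and the one for HOXD13 rests on few fragments.

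**Figure D1:**
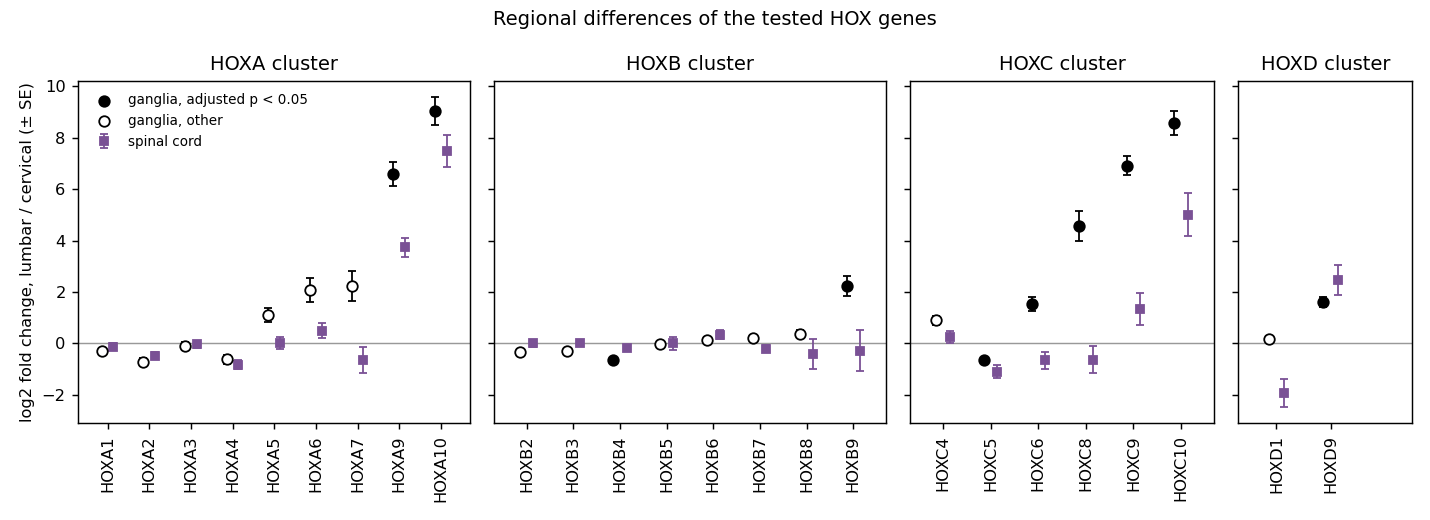
Log2 fold change of lumbar over cervical for each tested HOX gene (vertical axis, points with SE), by cluster and by gene number along the horizontal axis; circles are the 16 ganglion libraries, filled where the adjusted p was under 0.05, and squares the 16 cord libraries at the same regions. In ganglia the values climb from -0.62 at HOXA4 to 9.04 at HOXA10 and from -0.66 at HOXC5 to 8.57 at HOXC10, and lie between -0.65 and 0.37 in cluster B up to HOXB8.

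Groups 6 to 8 were higher in lumbar ganglia in 7 of 7 tested members, with a median log2 fold change of 1.53, and 2 passed the test. HOXC8 and HOXA6, with lowest cervical levels of 0.041 and 0.065 CPM, passed the filter on low counts only with lumbar reads. The 7 of 7 is therefore no separate support. HOXC8 (chromosome 11, 52910651 to 52914281) ran from 0.041 to 5.31 CPM in cervical libraries (median 1.28) and from 12.4 to 17.4 CPM in lumbar libraries (median 15.6), with no overlap and a log2 fold change of 4.56 ± 0.59 (limma adjusted p = 0.00142). HOXC6 (chromosome 11, 52918275 to 52932401) ran from 1.82 to 16.9 CPM (median 7.04) and from 13.9 to 29.7 CPM (median 19.9), a log2 fold change of 1.53 ± 0.29 (limma adjusted p = 0.0338). The HOXC8 call was kept after leaving out any 1 library and was made under 10 of 14 alternative settings. The HOXC6 call was lost without any 1 of 9 of the 16 libraries, with adjusted p up to 0.204, and was made under 7 of 14 settings.

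The members of cluster A in these groups missed the threshold. HOXA7 gave 2.23 ± 0.60 (limma adjusted p = 0.127) and HOXA6 gave 2.08 ± 0.47 (adjusted p = 0.0736), each higher in lumbar ganglia in 6 of 6 animals. Reads of HOXA6 may in part be those of HOXA5, since their annotated exons overlap. The members of cluster B lay near 0, at 0.37 ± 0.13 for HOXB8, 0.21 ± 0.12 for HOXB7 and 0.13 ± 0.11 for HOXB6, with levels between 15.1 and 43.8 CPM in all 16 libraries.

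The wide errors of the middle groups came with a wide spread among cervical libraries. HOXA7 stood at 39.1 and 39.8 CPM in cervical control replicates 1 and 2, at 26.2 in control replicate 4, and at 23.7 and 17.8 in treated replicates 1 and 3. It stood at 1.69 CPM in control replicate 3, 0.238 in treated replicate 2 and 1.17 in treated replicate 4, while the lumbar libraries ran from 25.7 to 54.5 CPM. The same 3 cervical libraries had the lowest levels of HOXA5 (4.56, 5.61 and 9.50 CPM, against 11.9 to 34.4) and of HOXA6 (0.247, 0.065 and 0.073 CPM, against 1.25 to 3.87).

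HOXC8 was lowest in 2 of those 3, control replicate 3 (0.041 CPM) and treated replicate 2 (0.087 CPM), and treated replicate 4 (0.657 CPM) lay above treated replicate 3 (0.269 CPM). HOXB4 did not share this split and stood at 7.92, 9.85 and 15.2 CPM in these 3 libraries and at 7.96 to 12.6 CPM in the other 5. The summed level of the tested members of groups 6 to 8 ran from 54.001 to 160 CPM in cervical ganglia and from 159 to 187 CPM in lumbar ganglia. The segment of each ganglion is not labelled, and its part in this spread was not tested.

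**Figure D2:**
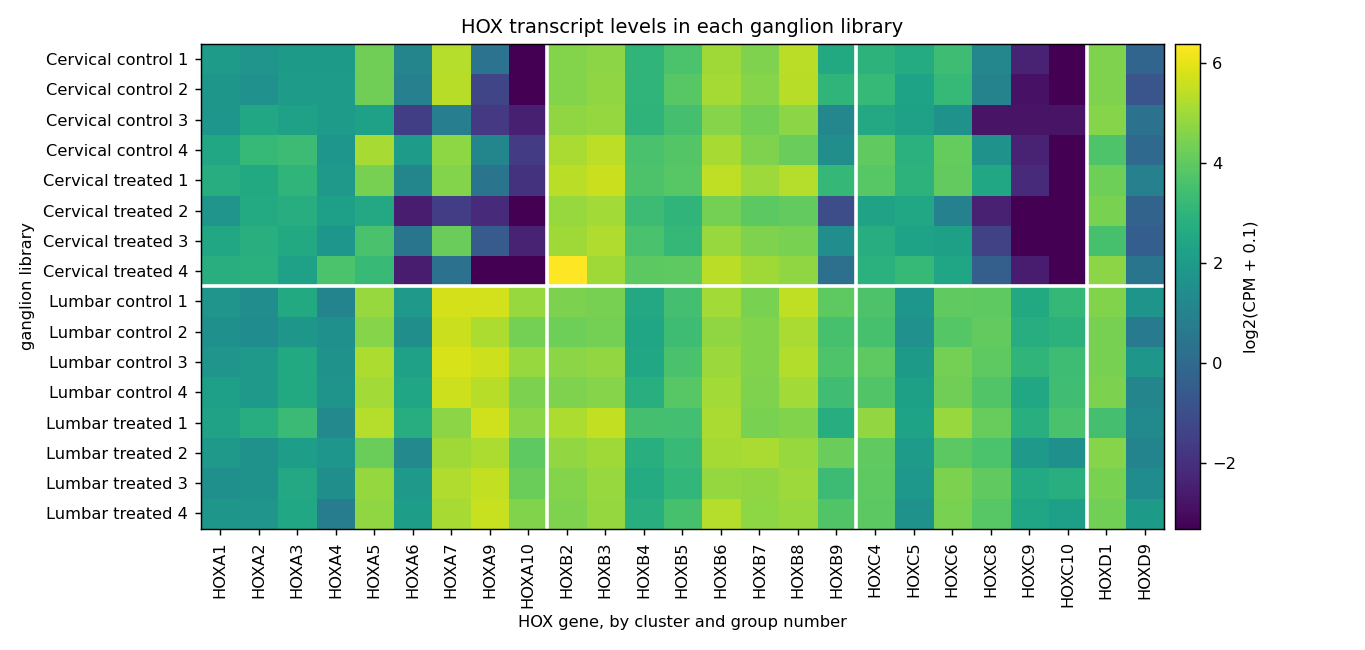
Level of each tested HOX gene (columns, by cluster and number) in each of the 16 ganglion libraries (rows, cervical above the white line and lumbar below), as the log2 of CPM plus 0.1. The columns of HOXA9, HOXA10, HOXC8, HOXC9 and HOXC10 are dark in cervical and bright in lumbar libraries, and the cervical rows control 3, treated 2 and treated 4 are darker than the other cervical rows at HOXA6 and HOXA7.

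Low-numbered HOX genes went the other way more often. Of 12 tested members of groups 1 to 5, 9 had lower values in lumbar ganglia and 3 higher, with a median log2 fold change of -0.30, and 2 passed the test, both lower. HOXB4 (chromosome 16, 33929268 to 33932297) ran from 7.92 to 15.2 CPM in cervical libraries (median 10.8) and from 5.05 to 11.4 CPM in lumbar libraries (median 6.38), a log2 fold change of -0.65 ± 0.09 (limma adjusted p = 0.00478). HOXC5 (chromosome 11, 52932462 to 52936942) ran from 4.53 to 8.91 CPM (median 5.87) and from 2.88 to 4.83 CPM (median 3.62), a log2 fold change of -0.66 ± 0.11 (limma adjusted p = 0.0147). Both were lower in lumbar ganglia in 6 of 6 animals, and in HOXB4 lumbar treated replicate 1 reached 11.4 CPM against at most 6.92 in the other 7 lumbar libraries. Without cervical treated replicate 3 the adjusted p of HOXB4 was 0.0555, and the HOXC5 call was lost without any 1 of 4 libraries, with adjusted p up to 0.0655. HOXB4 was called under 8 and HOXC5 under 6 of 14 alternative settings.

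HOXA4 was the only gene of the 14168 whose lumbar libraries all lay below its cervical libraries (0.00706%), at 1.56 to 3.29 CPM (median 2.78) against 3.34 to 12.3 CPM (median 3.83). Its log2 fold change of -0.62 ± 0.16 did not pass the test (limma adjusted p = 0.111), and was -0.55 without cervical treated replicate 4, the library at 12.3 CPM (adjusted p = 0.160). Genes whose lumbar libraries all lay above the cervical ones numbered 5 (0.0353%): HOXC10, HOXC9, HOXA10, HOXA9 and HOXC8. These 5 passed the filter on low counts only with lumbar reads, so their lack of overlap is a description. Together 6 genes had no overlap between the regions (0.0423%), all of them HOX genes.

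HOXA2 gave -0.73 ± 0.16 (limma adjusted p = 0.0586), with lower values in lumbar ganglia in 6 of 6 animals. The 3 members of groups 1 to 5 with higher values were HOXA5 (1.10 ± 0.26), HOXC4 (0.89 ± 0.19) and HOXD1 (0.17 ± 0.13), none of which passed, at limma adjusted p of 0.0858, 0.0555 and 0.609. The lowest-numbered genes of cluster C in the table, HOXC4 and HOXC5, lie side by side and had values of opposite sign. HOXB1, untested for its low counts, had 69 cervical and 34 lumbar reads, a ratio of 0.466 (0.2996 to 0.713, taking each read as independent).

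Per length, the order of HOX genes in the 2 regions was alike at its top. In cervical ganglia HOXD1 stood at 20.4, HOXB2 at 18.4 and HOXB7 at 15.3 CPM per kilobase of exon (mean of 8 libraries). In lumbar ganglia HOXD1 stood at 20.8, HOXB7 at 16.2, HOXB2 at 12.4 and HOXA9 at 11.9. HOXA9 stood at 0.191 in cervical ganglia. Cervical treated replicate 4 raised the cervical mean of HOXB2, at 82.8 CPM against 23.6 to 41.5 CPM in the other 7, and without it the mean was 15.1 CPM per kilobase.

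The cervical and lumbar spinal cord offered the same pair of body levels in another tissue. A fit over 32 libraries (16 of ganglia, 16 of cord) compared the regional differences of both. Within that fit 1082 of 14710 genes differed between lumbar and cervical cord (7.36%), 338 higher (2.30%) and 744 lower (5.06%). Of the 10 HOX genes called in ganglia, 7 had cord values of the same sign (all genes 7759 of 14710, or 52.7%), and 5 passed in cord too: HOXC10 (5.01 ± 0.82), HOXA10 (7.48 ± 0.62), HOXA9 (3.73 ± 0.36), HOXD9 (2.46 ± 0.58) and HOXC5 (-1.10 ± 0.26), each with a limma adjusted p under 0.05. HOXC9 gave 1.33 ± 0.61 in cord, HOXC8 -0.63 ± 0.52, HOXC6 -0.66 ± 0.34, HOXB9 -0.28 ± 0.78 and HOXB4 -0.19 ± 0.10, none of which passed. These cord values include 2 lumbar cord libraries with almost no MOG, control replicate 1 and treated replicate 1. Without them HOXB9 gave 1.21 in cord (limma adjusted p = 0.173), the sign it had in ganglia. HOXD9 then gave 3.40, and the other called HOX genes kept their cord sign.

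The difference between the tissues was itself tested, and 7 of 14710 genes passed (0.0476%), none of them a HOX gene, with 3 at larger values in ganglia (0.0204%) and 4 at smaller values (0.0272%). The nearest HOX genes were HOXA9 with a ganglion minus cord difference of 2.87 ± 0.66, HOXC8 with 5.01 ± 1.18 and HOXC6 with 2.22 ± 0.52, at a limma adjusted p of 0.0802 each, and HOXC9 with 5.44 ± 1.39 (adjusted p = 0.0882). Without lumbar cord control replicate 1 and treated replicate 1, 0 genes passed. Without them the adjusted p was 0.0597 for HOXC6, 0.0772 for HOXA9 and 0.0784 for HOXC8, each still with a positive difference. HOXD9, at an adjusted p of 0.0615, had a negative ganglion minus cord difference of -1.87.

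The regional difference was also compared between control and treated animals. In limma 0 of 14168 genes passed for the interaction of region and treatment (0%), with a smallest adjusted p of 0.999, and 335 reached an unadjusted p under 0.05 (2.36%). The edgeR quasi-likelihood test with animal as a fixed block also called 0, with a smallest adjusted p of 0.0731 and 540 genes at an unadjusted p under 0.05. Only 2 treated animals gave both regions, so an interaction could be missed. Among the 10 called HOX genes the interaction ran on the log2 scale from -0.99 ± 0.85 for HOXC10 to 1.55 ± 0.76 for HOXB9, none past the threshold. HOXB9 and HOXC6 (1.12 ± 0.56) came nearest, at unadjusted limma p of 0.057 and 0.0619. The others were 1.22 for HOXA9, 0.86 for HOXC8, 0.82 for HOXC9, -0.02 for HOXD9, -0.04 for HOXC5, -0.07 for HOXB4 and -0.48 for HOXA10.

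Outside the HOX clusters, most called genes were lower in lumbar ganglia. All 22 of these calls were lost without cervical treated replicate 3. In bulk tissue, fewer cells of a type and less RNA per cell cannot be told apart. NTN4, a netrin of basement membranes (chromosome 11, 99363533 to 99491087), ran from 28.6 to 105 CPM in cervical libraries (median 38.2) and from 17.4 to 34.9 CPM in lumbar libraries (median 24.1), a log2 fold change of -0.88 ± 0.15 (limma adjusted p = 0.0205). The highest value was cervical control replicate 4, and the lower cervical libraries overlapped the lumbar range. LUM, the small leucine-rich proteoglycan lumican that binds collagen fibrils (chromosome 11, 94745010 to 94753446), ran from 103 to 483 CPM (median 215) and from 70.0 to 215 CPM (median 132), a log2 fold change of -0.86 ± 0.16 (limma adjusted p = 0.0328).

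COL11A2, a chain of a fibrillar collagen (chromosome 4, 137595373 to 137625820), gave 15.1 to 37.3 CPM and 11.8 to 22.3 CPM, with medians of 27.02 and 15.97 and a log2 fold change of -0.71 ± 0.13 (limma adjusted p = 0.0328). ADAMTSL2, a glycoprotein of microfibrils, fell by 1.36 ± 0.23 on the log2 scale, and ADAMTS14, a protease that trims procollagen, fell by 1.22 ± 0.23, with limma adjusted p of 0.0234 and 0.0338. ANGPTL7, a secreted angiopoietin-like protein, ran from 50.1 to 508 CPM in cervical libraries (median 131) and from 13.2 to 159 CPM in lumbar libraries (median 60.8), a log2 fold change of -1.60 ± 0.29 (limma adjusted p = 0.0328). All 4 were lower in lumbar ganglia in 6 of 6 animals, while their library ranges overlapped.

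SLC22A3, an organic cation transporter (chromosome 4, 10353655 to 10454579), had the largest fall outside HOX, from 8.55 to 62.2 CPM in cervical libraries (median 22.6) to 3.19 to 20.03 CPM in lumbar libraries (median 7.11), a log2 fold change of -1.85 ± 0.28 (limma adjusted p = 0.0081). Within animals, the log2 difference of CPM plus 0.1 ran from -2.58 to -1.44. SLC2A1, the glucose transporter GLUT1 that is abundant in perineurial cells and barrier endothelium (chromosome 1, 184719576 to 184753398), ran from 125 to 526 CPM (median 213) and from 67.1 to 272 CPM (median 125), a log2 fold change of -1.04 ± 0.18 (limma adjusted p = 0.0237). ATP10A, a phospholipid flippase, gave -1.03 ± 0.20 (limma adjusted p = 0.0387).

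KLHL14, a kelch-like adaptor protein (chromosome 18, 49428599 to 49527117), fell from 1.28 to 5.15 CPM in cervical libraries (median 2.62) to 0.482 to 2.29 CPM in lumbar libraries (median 1.26), a log2 fold change of -1.35 ± 0.21 (limma adjusted p = 0.00893). Its differences within the 6 animals ran from -1.60 to -1.11 on the same scale. SLC22A3 was called after leaving out any 1 library but cervical treated replicate 3 (adjusted p = 0.0789 without it), and KLHL14 after leaving out any 1 but cervical treated replicates 3 and 4. Both were called under 9 of 14 alternative settings. The other 20 calls outside HOX were each lost without any 1 of 4 to 13 libraries, with adjusted p up to 0.275: 4 for NTN4, 7 for SLC2A1, 8 for COL11A2, 9 for LUM, 10 for ANGPTL7, 11 for RNF19B and 13 for GPIHBP1. LY6G6C, a membrane-anchored protein of the Ly6 family, gave -1.38 ± 0.25 (limma adjusted p = 0.0281).

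CYP21A2, the steroid 21-hydroxylase, gave -1.51 ± 0.27 (limma adjusted p = 0.0308), from 9.46 to 50.1 CPM in cervical libraries to 3.97 to 15.9 CPM in lumbar libraries. Its identity is uncertain, since genes of this locus can have near-identical copies between which reads may be split. The other 4 called genes with lower values were FLVCR2, a transporter (-0.78 ± 0.13), RCVRN, the calcium sensor recoverin (-0.47 ± 0.09), PRRX2, a homeodomain factor of mesenchyme (-1.29 ± 0.25), and IQCK (-0.53 ± 0.11). Those 4 fell outside the naming rule and were named after their values were seen. FLVCR2 shares annotated exon sequence with TTLL5.

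**Figure D3:**
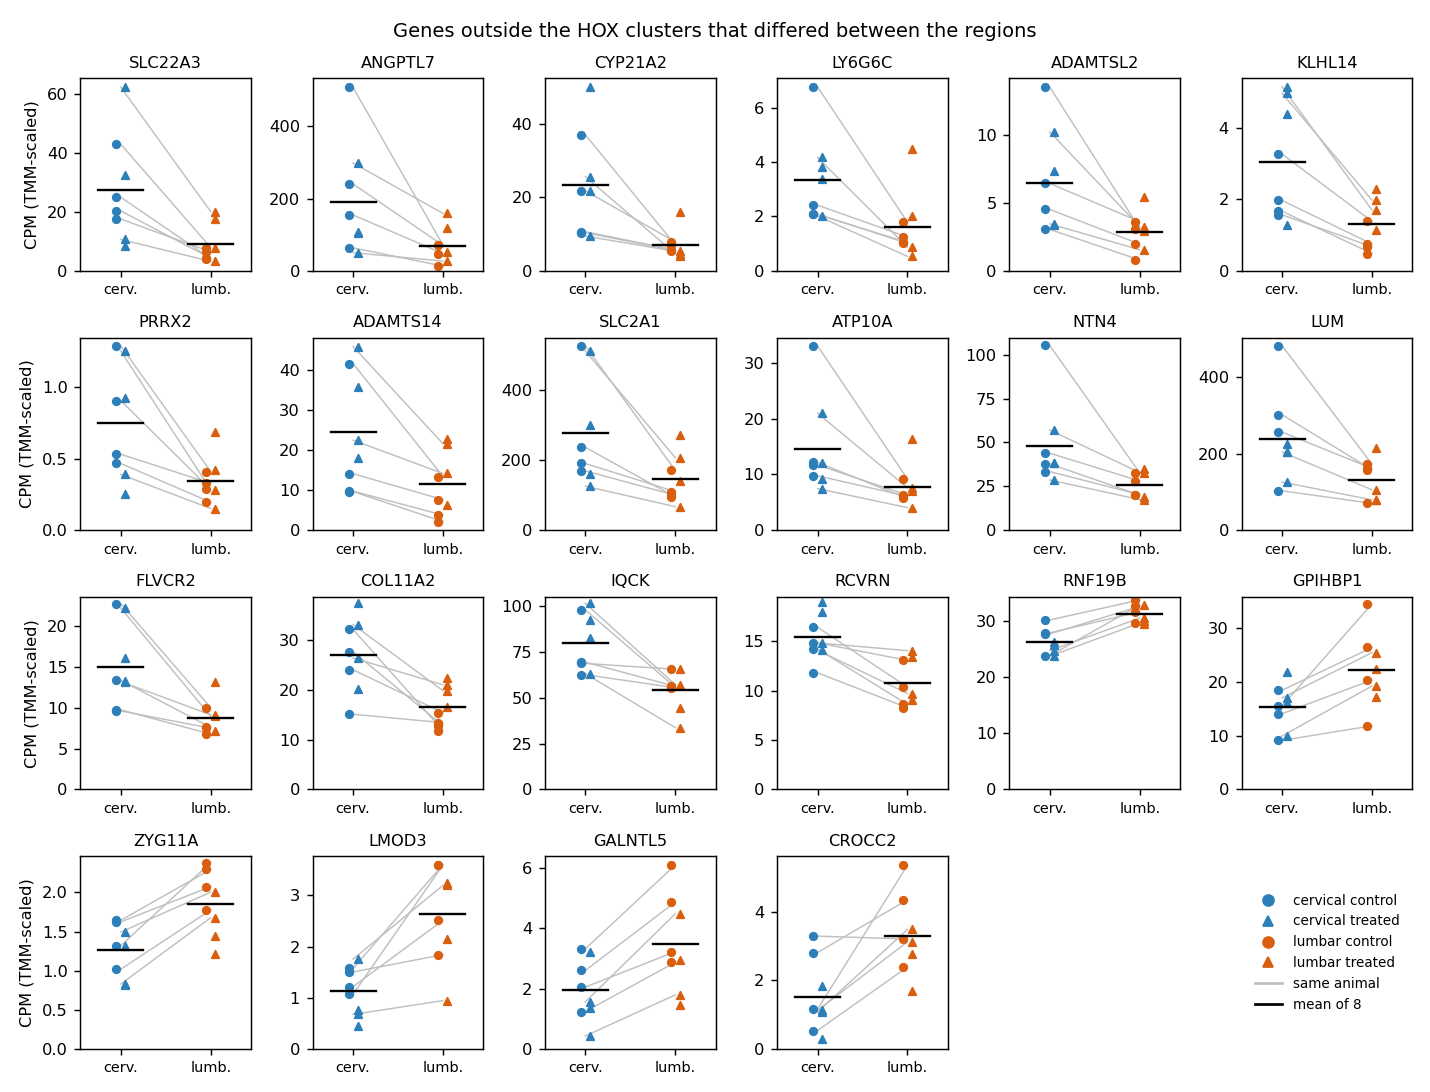
Level in CPM (vertical axes start at 0) of the 22 genes outside the HOX clusters that passed the test, in 8 cervical and 8 lumbar libraries, with circles for control and triangles for treated animals, grey lines joining the 2 regions of 1 animal and black bars for the mean of 8. Within a panel the grey lines point the same way, except 1 of 6 for CROCC2, while the points of the regions overlap in every panel.

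The 6 other genes called higher in lumbar ganglia had log2 fold changes from 0.27 to 1.34. RNF19B, an E3 ubiquitin ligase (chromosome 1, 194986161 to 195019390), was even across animals, at 23.8 to 30.2 CPM in cervical libraries (median 25.99) and 29.5 to 33.8 CPM in lumbar libraries (median 31.1), a log2 fold change of 0.27 ± 0.05 (limma adjusted p = 0.0333). GPIHBP1, which anchors lipoprotein lipase on capillary endothelium, ran from 9.10 to 21.8 CPM (median 15.8) and from 11.8 to 34.4 CPM (median 21.3), a log2 fold change of 0.63 ± 0.12 (limma adjusted p = 0.0466). GALNTL5, a member of the polypeptide N-acetylgalactosaminyltransferase family, gave 1.08 ± 0.20, CROCC2, a relative of the ciliary rootlet protein, 1.34 ± 0.26, and ZYG11A, a substrate adaptor of a ubiquitin ligase, 0.63 ± 0.12, with limma adjusted p of 0.0328, 0.0404 and 0.0366.

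LMOD3, an actin nucleator of skeletal muscle thin filaments, ran from 0.438 to 1.75 CPM in cervical libraries and from 0.942 to 3.60 CPM in lumbar libraries, a log2 fold change of 1.03 ± 0.20 (limma adjusted p = 0.0431). Without the 3 lumbar libraries with over 20 CPM of CKM it gave 0.77 (adjusted p = 0.119). Of the skeletal muscle markers, 14 of 14 tested members had higher values in lumbar ganglia, with a median of 1.32, and 0 passed. Their summed level ran from 34.4 to 91.8 CPM in cervical and from 35.6 to 935 CPM in lumbar ganglia, and without those 3 libraries the median was -0.05. The mean log2 level of the list was higher in lumbar ganglia in 3 of 6 animals.

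Gene lists for cell types and pathways were described by their counts, beside 49.8% of all tested genes with values above 0. Fibroblast and perineurial markers were lower in lumbar ganglia in 17 of 17 tested members, with a median log2 fold change of -0.78, and 2 passed, SLC2A1 and LUM. DCN, the matrix proteoglycan decorin, went from a mean of 1610.2 to 780 CPM, a log2 fold change of -1.08 ± 0.24 that missed the threshold (limma adjusted p = 0.0691). CLDN1, a tight junction protein of the perineurium, gave -0.91 ± 0.29, and the fibrillar collagen COL3A1 gave -0.78 ± 0.27, neither past the threshold. The mean log2 level of the list was lower in lumbar ganglia in 6 of 6 animals, although the summed level overlapped, from 3196 to 17249 CPM in cervical and from 2663 to 11490 CPM in lumbar libraries. The median was -0.42 in treated libraries alone and -0.86 in controls alone.

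In the collagen list, which shares COL1A1, COL1A2 and COL3A1 with the fibroblast list, 28 of 37 tested members had lower values, with a median of -0.24, and COL11A2 alone passed. The mean log2 level of the collagens was also lower in lumbar ganglia in 6 of 6 animals, and the median was -0.12 in treated libraries alone and -0.24 in controls alone. Schwann cell and myelin markers had lower values in 20 of 22 (median -0.19), with 0 past the threshold and 8 at an unadjusted p under 0.05, among them UGT8 (-0.32 ± 0.08), an enzyme of myelin galactolipids, and EGR2 (-0.43 ± 0.13), the transcription factor of myelination. Over the animals with both regions, the mean level of the Schwann list was higher in lumbar ganglia in 2 of 6, and the median of the list ran from -0.33 without the 3 CKM-rich lumbar libraries to -0.10 with quality weights.

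**Figure D4:**
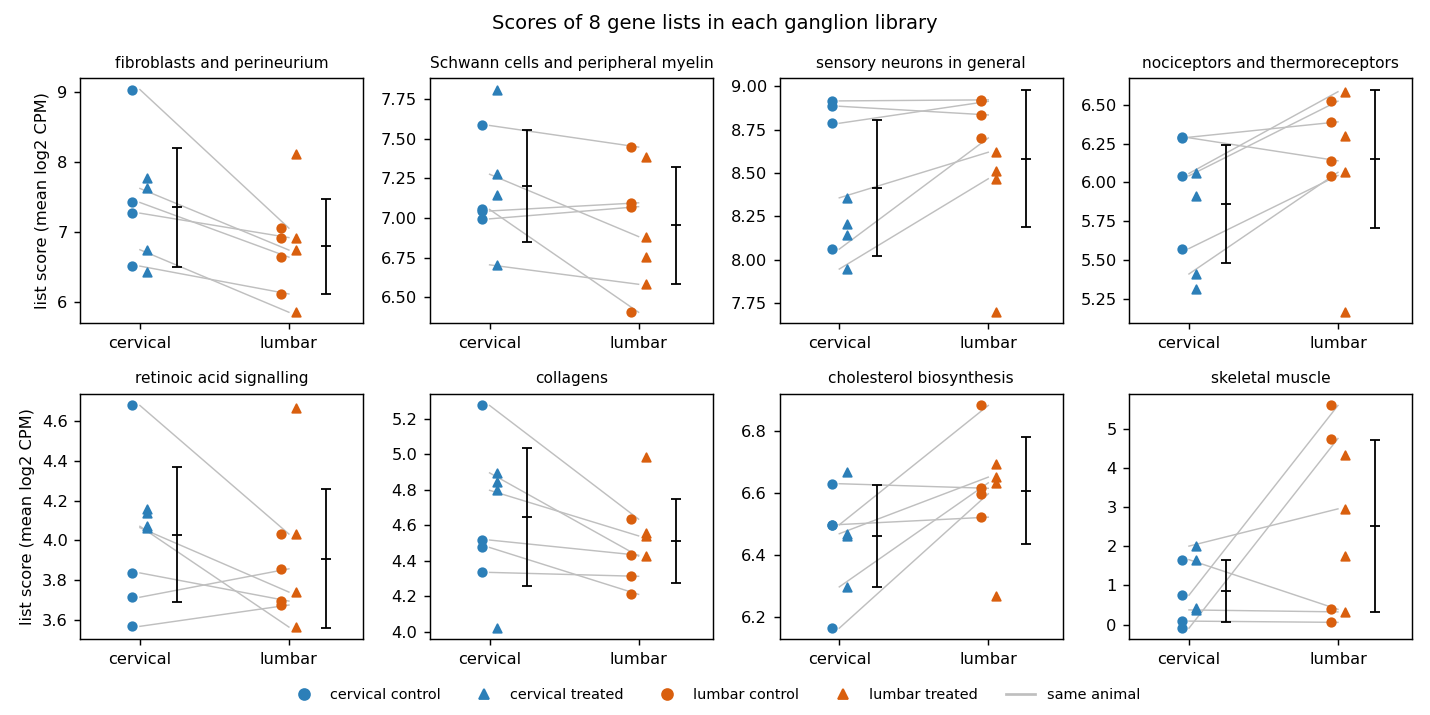
Mean log2 CPM of the members of 8 lists (vertical axes, scales differ) in each cervical and lumbar library, with circles for control and triangles for treated animals, grey lines joining the 2 regions of 1 animal and bars for mean ± SD of 8 libraries. Fibroblast and collagen lines fall in 6 of 6 animals, sensory neuron and cholesterol lines rise in 5 of 6, and 3 lumbar libraries stand high in the muscle panel.

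Neuronal markers had mostly higher values in lumbar ganglia. General markers of sensory neurons were higher in 13 of 13 tested members (median 0.21), and markers of nociceptors and thermoreceptors, the small neurons for pain and temperature, in 20 of 23 (median 0.37), with 0 of either list past the threshold. Over the alternatives the medians ran from 0.13 to 0.31 and from 0.23 to 0.50, lumbar treated replicate 1 having the lowest level of both lists. Examples chosen after their values were seen were ADCYAP1 (0.54 ± 0.14), the neuropeptide PACAP, and CALCB (0.47 ± 0.13), a calcitonin gene-related peptide, with limma adjusted p of 0.123 and 0.141. Markers of large-diameter and mechanosensory neurons were split evenly, 11 of 22 higher (median -0.03), and their median was 0.18 in control libraries alone and -0.16 in treated libraries alone.

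The parvalbumin gene PVALB, a marker of proprioceptors, stood at a mean of 236 CPM in cervical and 111 CPM in lumbar ganglia, with a log2 fold change of -0.41 ± 0.28 that did not pass (limma adjusted p = 0.545). The light neurofilament NEFL gave 0.29 ± 0.13 and the medium one NEFM 0.30 ± 0.16, neither past the threshold. Voltage-gated channels had higher values in 40 of 60 (median 0.09), and neurotrophin and GDNF family genes in 10 of 15 (median 0.08), with 0 past the threshold in both.

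Retinoic acid signalling, a pathway that sets HOX expression in the embryo, had lower values in 15 of 18 tested members, with a median of -0.35 (-0.20 in controls alone), and 0 passed. ALDH1A3, an enzyme that makes retinoic acid, gave -0.76 ± 0.18 (limma adjusted p = 0.0838), the receptor RARB gave -0.32 ± 0.10, and the binding protein CRABP1 went the other way at 1.73 ± 0.57. Partners of HOX proteins and other positional factors had lower values in 14 of 21 (median -0.11), with 0 past the threshold; PBX3, a HOX cofactor, gave -0.23 ± 0.06 and the mesenchymal factor TBX18 gave -0.57 ± 0.15. Axon guidance genes had 26 of 61 higher (median -0.04), and NTN4 was the 1 member called. The mean log2 level of the axon guidance list, and that of the HOX partner list, was lower in lumbar ganglia in 6 of 6 animals. Over all 8 libraries per region the axon guidance level was 3.95 in cervical and 3.96 in lumbar ganglia. Its median log2 fold change was 0.006 without lumbar treated replicate 2.

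Cholesterol biosynthesis genes had higher values in 22 of 22 tested members, all small (median 0.17), and 0 passed. FDFT1, squalene synthase, gave 0.23 ± 0.07 and MVD gave 0.47 ± 0.15, with limma adjusted p of 0.170 and 0.203. Genes of the mitochondrial genome were higher in 11 of 13 (median 0.06). That median was 0.13 without cervical treated replicate 4 and -0.27 in treated libraries alone. Satellite glia (3 of 9 higher, median -0.04), macrophages (8 of 14, 0.01), endothelium and mural cells (8 of 18, -0.17), meninges (7 of 13, 0.16), adipocytes (8 of 11, 0.39) and lymphocytes (13 of 16, 0.25) had no member past the threshold. The meninges median was -0.11 without the 3 CKM-rich lumbar libraries, -0.10 in treated libraries alone and 0.47 in controls alone. The adipocyte median was 0.61 without the CKM-rich libraries and -0.22 in edgeR with no block, and the endothelial median was 0.11 in treated libraries alone. The satellite glia median was 0.04 in controls alone, and the macrophage median ran from -0.08 to 0.12 over the alternatives. Central glia had 4 of 9 higher (median -0.09, or -0.07 without cervical treated replicate 4 and 0.01 in controls alone), with a summed level from 218 to 500.6 CPM in cervical and from 227 to 334 CPM in lumbar libraries.

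**Figure D5:**
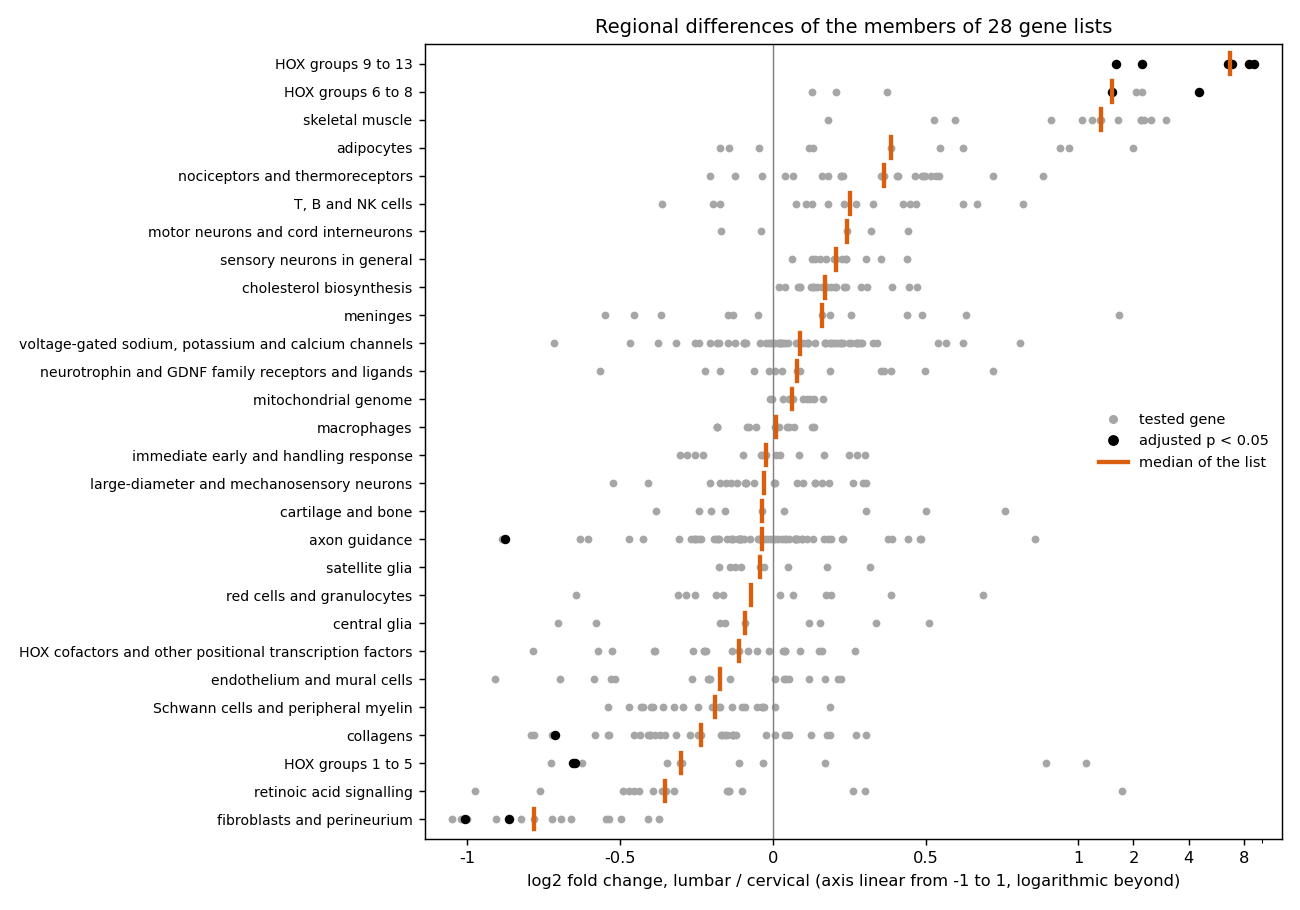
Log2 fold change of lumbar over cervical (horizontal axis, linear between -1 and 1 and logarithmic beyond) for every tested member of 28 gene lists, grey where the adjusted p was 0.05 or more and black where it was under 0.05, with an orange bar at each list's median. The black points sit in the HOX lists, fibroblasts and perineurium, collagens and axon guidance, and the medians outside HOX run from -0.78 for fibroblasts and perineurium to 1.32 for skeletal muscle.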

How the data were processed

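Messenger RNA was measured in 48 libraries, of which the 16 ganglion libraries were compared here and 16 cord libraries were used beside them. The authors deposited raw read counts for each gene name. Per the file headers these came from featureCounts 1.4.6-p1 on Ensembl release 94 of the Macaca_fascicularis 5.0 build. The submitters' processing notes name STAR 2.5.3a as aligner. Libraries were stranded and read as 50 bp pairs per the labels' protocols. The command in the header sets neither paired counting nor strand, so the 2 mates of a pair were counted separately, and genes that overlap or lie antisense cannot be told apart. Coordinates and the summed exon length per gene are those of the deposited table.

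Counts were scaled by TMM and filtered with filterByExpr by region (edgeR 4.0.16, R 4.3.3), and fitted in limma 3.58.1 voom with duplicateCorrelation in 2 rounds (statmod 1.5.0), region and treatment as terms and animal as a random block. limma was the main test because edgeR takes no random block and treatment is constant within an animal. P-values are two-sided and adjusted over all genes. Levels are TMM-scaled CPM and fold changes are log2 with SE. List levels are mean log2 CPM with a prior count of 2. The block rests on the animal identifiers in the labels. Deviations from group means correlated at 0.31 to 0.55 between the 2 regions of 1 animal, against a mean of -0.09 between animals, and the consensus correlation was 0.71. No pair of libraries in a group agreed within sampling noise. On simulated counts for 14100 genes, the fit recovered 86 of 99 genes changed 2-fold and 96 of 98 changed 4-fold, with 17 false calls. Those counts had a consensus correlation of 0.476, below the 0.71 of the ganglion libraries, and the recovery holds for that setting only. Recovery at the correlation of the ganglion libraries was not tested.

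Genes were named by rule: every called HOX gene, the 10 largest called rises and falls outside HOX with at least 1 CPM, up to 3 called members of each list, and called genes of the other 2 comparisons. List members that did not pass were named after their values were seen. Some genes are not reported here. The comparison and all lists were chosen with earlier results of these data known. Alternatives were edgeR, DESeq2 1.42.0, other blocks, sex, scaling and filters, quality weights, subsets of animals and leaving out each library.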

Additional observations from a re-analysis of the deposited data

Results flagged for a closer look

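In 150 groups of 8 libraries (each HOX gene, named gene and list level per region), 13 held a library set apart from the other 7 by a gap above Dixon's critical value for 8. Chance flags about 1 in 20 groups. Lumbar treated replicate 1 accounted for 7 of the 13. It stood high in HOXA2 at 6.53 CPM (others 2.53 to 3.65), in HOXB4 at 11.4 CPM (others 5.05 to 6.92) and in HOXC4 at 28.1 CPM (others 11.7 to 16.1), and low in HOXD1 at 11.4 CPM (others 19.9 to 24.6). Its mean log2 level was 4.66 for retinoic acid signalling (others 3.57 to 4.03), 7.70 for general sensory neuron markers (others 8.47 to 8.92) and 5.17 for nociceptor markers (others 6.05 to 6.58). Cervical treated replicate 4 accounted for 4: HOXA4 at 12.3 CPM (others 3.34 to 4.29), HOXB2 at 82.8 CPM (others 23.6 to 41.5), axon guidance at 3.42 (others 3.90 to 4.14) and central glia at 3.40 (others 1.89 to 2.43). In cervical ganglia, HOXC10 was seen only in control replicate 3, at 0.0412 CPM, and immediate early genes stood highest in treated replicate 1, at a mean log2 level of 4.51 (others 3.91 to 4.14).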

How the results depend on the processing

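The count of 32 called genes was 13 in edgeR and 446 in DESeq2 with animal as a fixed block, 4 in edgeR and 5 in limma with no block, 6 with the label number as the replicate block, 60 with quality weights, 8 in the 6 animals with both regions, 8 in controls alone, 4 in treated libraries alone, and 19 without the 3 lumbar libraries with over 20 CPM of CKM, a setting chosen after seeing the data. Leaving out 1 library gave 7 to 102. Counts of 31 to 36 came with sex added, median-ratio scaling, no filter and a 1 CPM filter. HOXC10, HOXC9, HOXA10 and HOXA9 were called in each of these fits, and the 32 genes kept their sign in each, apart from PRRX2 under the 1 CPM filter, where it was not tested. The cause of the changes in count was not tested. The interaction count stayed at 0 in each alternative run. The 7 genes that differed between ganglia and cord became 0 with no block, 0 without the 2 lumbar cord libraries with almost no MOG, and 0 when cervical ganglion treated replicate 4 was left out too. Genes near 0 changed sign: HOXB6 (0.13 in the main comparison) was -0.00843 in edgeR with no block and -0.0184 in controls alone. HOXA3 (-0.11) was 0.0419 with quality weights, and -0.213 to 0.00327 over fits that left out 1 library. HOXB5 (-0.03) was 0.0263 in edgeR and 0.0288 in DESeq2 with animal as a fixed block, 0.0113 in the 6 animals, 0.0283 in treated libraries alone, and -0.118 to 0.0436 over fits that left out 1 library. Counting depth left 10 of the 35 HOX genes untested, with 0 to 274 reads per region.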

Other observations

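Of the 7 genes whose regional difference itself differed between ganglia and cord, 6 were not called in ganglia. NTN4, the netrin called lower in lumbar ganglia, gave 0.35 ± 0.17 in cord, a ganglion minus cord difference of -1.19 ± 0.24. The actin-binding protein gene CORO6 gave -0.31 ± 0.10 in ganglia and 0.54 ± 0.12 in cord, and IL27RA, a cytokine receptor subunit, gave -0.27 ± 0.10 and 0.82 ± 0.14. CYS1, a ciliary protein gene, gave -0.54 ± 0.20 and 1.53 ± 0.28. SQLE, the squalene epoxidase of cholesterol synthesis, gave 0.21 ± 0.07 and -0.47 ± 0.09, the membrane-scission GTPase DNM2 gave 0.10 ± 0.06 and -0.50 ± 0.08, and the endocytic adaptor SH3KBP1 gave 0.20 ± 0.06 and -0.45 ± 0.08. Each had a limma adjusted p of 0.0495 for the difference, and none passed without lumbar cord control replicate 1 and treated replicate 1.

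Of the 22 called genes outside HOX, 13 had cord values of the same sign (59.1%, all genes 52.7%) and 2 passed in cord (9.09%, all genes 7.36%): ZYG11A (1.12 ± 0.21) and IQCK (-0.59 ± 0.12). Both shares were near those of all genes.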
